A study of Danio rerio with 8 samples.

Results

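The genes described are the transcription factors that give retinal ganglion cells their identity: the Islet LIM-homeodomain factors isl1, isl2a and isl2b, the POU4F (Brn3) factors pou4f1, pou4f2, pou4f3 and pou4f4, the Iroquois factor irx4a, and the T-box factors tbr1b and eomesa. They were chosen by name, with earlier results of these data known. Every array probe whose RefSeq accession belongs to 1 of the 10 listed genes was included. Of these, 9 genes were measured, by 18 of the 43603 probes on the array, and no probe was matched to pou4f1, which was not analysed here. The Islet gene listed as isl1 is called isl1a in the current RefSeq table. Total RNA of whole retinae from wild type adult zebrafish, 9 to 12 months old and of unseparated sex, was hybridised to 8 one-colour Agilent arrays. In the 4 crush pools the right optic nerve had been crushed with forceps 3 days earlier, which cuts the ganglion cell axons and spares the nerve sheath, while the 4 control pools were made from the right eyes of fish without surgery. Each pool combined the retinae of 4 fish.

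Retinal ganglion cells are the only neurons that send axons out of the eye, and in fish they regrow those axons after injury. During development their fate is set by a cascade in which the bHLH factor Atoh7 makes progenitors competent and the POU4F and Islet factors then switch on the genes of the differentiated cell. POU4F and Islet proteins are kept in mature ganglion cells, while T-box and Iroquois factors mark subsets of them. Some of these genes are also used elsewhere in the retina, and in the mouse Isl1 is present in bipolar and starburst amacrine cells as well as in ganglion cells.

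Signals are given as log2 intensity after background correction and quantile normalisation, and a change is the mean of the crush pools minus the mean of the control pools. A probe was called over- or under-expressed when it changed at least 1.5-fold (0.585 on the log2 scale) with an adjusted p of at most 0.05 in limma. Over the whole array 1203 of 43601 tested probes (2.76%) passed, 826 higher and 377 lower after crush, so that 68.7% were higher. That share was 49.4% when arrays were scaled to their medians and 44.7% with the scanner's processed signal. With 1 pool left out between 482 probes (without crush pool 2) and 1533 probes (without control pool 4) passed. Between 76.6% and 77.8% of spots on crush arrays and between 72.5% and 84.0% on control arrays were well above background by the scanner software's test. No spot was saturated. Control array 2 had 382 outlier spots, against 6 to 21 on the other arrays. All crush arrays lay on 1 slide and all control arrays on another, so slide and group cannot be told apart. With 4 arrays in each group, array number sets the precision. Different probes bind with different strength, so no probe's level is set against another's. A gene with several probes is represented by its brightest, and the others are given beside it.

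Most of the ganglion cell factors were lower after crush. Of the 9 measured genes, 6 were under-expressed (isl2b, irx4a, pou4f2, pou4f4, tbr1b and pou4f3) and 0 were over-expressed in limma. At an unadjusted p of 0.05, 12 of 18 member probes were lower and 0 higher, against 9.34% and 10.1% of all probes. Over all 13143 genes with a symbol, 1.19% had at least 1 under-expressed probe and 3.02% at least 1 over-expressed probe. By probe, 10 of 18 (55.6%) were under-expressed, against 0.865% of all probes, and 0 were over-expressed, against 1.89%. In 11 of 18 every crush pool lay below every control pool, against 6.38% of all probes, and in 0 of 18 every crush pool lay above, against 7.52%. The median change of the 9 brightest probes was -0.89, beside 0.01 over all genes. Because the members were chosen with earlier results of these data known, the shares set beside them are a description only. Apart from 1 dim tbr1b probe, all member probes were well above background on all 8 arrays. In RNA from whole retina, fewer cells of a type and less RNA per cell cannot be told apart.

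**Figure D1:**
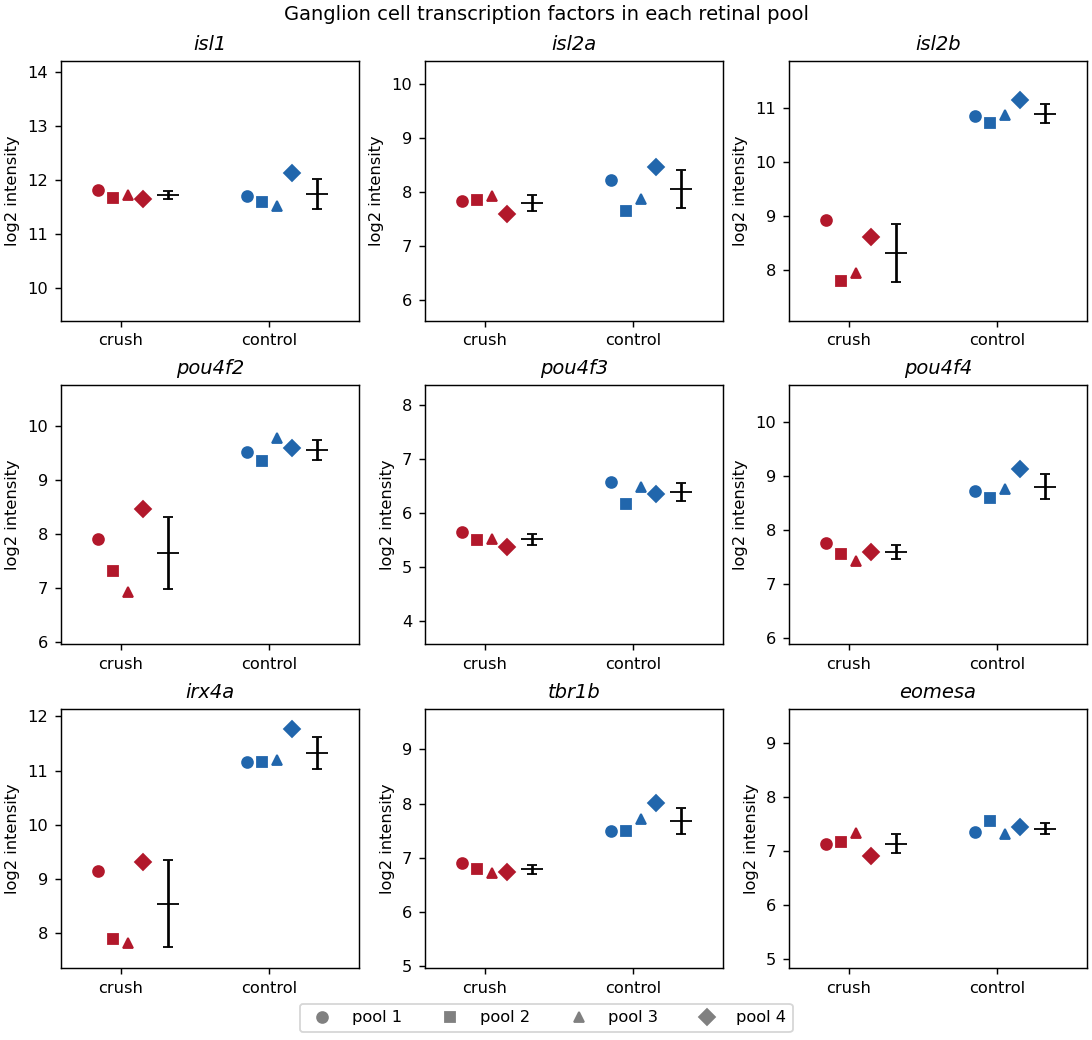
Log2 intensity of the brightest probe of each of the 9 measured factors in the 4 crush pools (red, left) and the 4 control pools (blue, right), with the mean and SD of each group as a black bar; marker shapes give the pool number, and every panel spans the same number of log2 units. Crush and control pools do not overlap for isl2b, pou4f2, pou4f3, pou4f4, irx4a and tbr1b, and they overlap for isl1, isl2a and eomesa.

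The 3 Islet genes differed in their values. isl2b, whose promoter is widely used to label ganglion cells in zebrafish reporter lines, had log2 intensities of 8.92, 7.80, 7.95 and 8.62 in crush pools 1 to 4 on its brightest probe (A_15_P144512), against 10.85, 10.72, 10.87 and 11.15 in control pools 1 to 4. All crush pools lay below all control pools, and the crush pools were the more widely spread. The means were 8.32 ± 0.53 in crush pools and 10.90 ± 0.18 in control pools (SD, n = 4 each), a 5.95-fold lower signal after crush (log2 fold change -2.57, SE 0.25, adjusted p = 0.00166, limma). The other isl2b probes were also under-expressed. A_15_P131456 read 6.69, 5.80, 5.97 and 6.54 in crush pools, against 8.69, 8.75, 8.67 and 8.88 in control pools (log2 fold change -2.50, SE 0.20, adjusted p = 0.000881, limma). A_15_P654848 read 8.42, 7.61, 7.81 and 8.27 in crush pools, against 10.58, 10.62, 10.63 and 10.88 in control pools (-2.65, SE 0.19, adjusted p = 0.000683, limma). On each probe crush pool 2 was lowest and crush pool 1 highest of the crush pools. The isl2b call held under each of 10 other settings and with each pool left out.

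isl2a, the second zebrafish copy of Isl2, a gene that in the mouse steers axons at the optic chiasm, was not called. Its brightest probe (A_15_P195396) read 7.84, 7.86, 7.92 and 7.59 in crush pools, against 8.22, 7.66, 7.88 and 8.46 in control pools. The groups overlapped, with control pools 2 and 3 among the crush values. The log2 fold change was -0.25 (SE 0.18, 95% interval -0.66 to 0.16, adjusted p = 0.483, limma). On A_15_P131451 the values were 6.51, 6.32, 6.32 and 6.44 in crush pools and 6.97, 6.66, 6.81 and 6.91 in control pools. This dimmer probe had no overlap between the groups, with a log2 fold change of -0.44 (SE 0.11, adjusted p = 0.0663, limma). The remaining probe, A_15_P628511, read 7.13, 7.16, 7.36 and 6.84 in crush pools and 7.45, 7.13, 7.11 and 7.59 in control pools, with overlap (-0.20, SE 0.16, adjusted p = 0.529, limma).

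isl1, which acts beside POU4F2 in the mouse ganglion cell programme, had signals of 11.82, 11.67, 11.72 and 11.65 in crush pools, against 11.71, 11.60, 11.52 and 12.13 in control pools (A_15_P143151). Control pool 4 was the highest of all arrays, and the other 3 control pools lay within or just below the crush range. The log2 fold change was -0.02 (SE 0.14, 95% interval -0.35 to 0.30, adjusted p = 0.950, limma). A_15_P104977 had the same shape, with 10.34, 10.24, 10.16 and 10.20 in crush pools and 10.15, 10.08, 9.98 and 10.73 in control pools (log2 fold change -0.00, SE 0.17, adjusted p = 0.999, limma). Without control pool 4 the changes were 0.11 and 0.17, and neither probe was called.

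All 3 measured POU4F genes were under-expressed after crush. pou4f2 (Brn3b), which in the mouse is needed for ganglion cell axon growth and survival, read 7.90, 7.32, 6.93 and 8.45 in crush pools on its brightest probe (A_15_P132196), against 9.52, 9.34, 9.78 and 9.58 in control pools. No crush pool reached the lowest control pool, and the crush pools were spread far more widely than the control pools. The means were 7.65 ± 0.67 in crush pools and 9.56 ± 0.18 in control pools (SD, n = 4 each), a 3.75-fold lower signal (log2 fold change -1.91, SE 0.30, adjusted p = 0.0146, limma). The other probe (A_15_P624576) gave 7.59, 7.10, 6.71 and 8.15 in crush pools and 9.19, 8.89, 9.43 and 9.20 in control pools (-1.79, SE 0.29, adjusted p = 0.0159, limma). Its pools stood in the same order within the crush group. The call of the brightest probe was lost without crush pool 2 (-1.80, adjusted p = 0.0570, limma) and without control pool 3 (-1.83, adjusted p = 0.0544, limma). The other probe lost it in the same cases (-1.69, adjusted p = 0.0611, and -1.71, adjusted p = 0.0583, limma). With replicate number as a block in the fit, the adjusted p was 0.0487 on the brightest probe and 0.0514 on the other (limma).

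pou4f4, a further POU4F gene that zebrafish carry, read 7.76, 7.57, 7.44 and 7.60 in crush pools and 8.73, 8.59, 8.77 and 9.14 in control pools (A_15_P181191). Each crush pool was below each control pool, and both groups were tight. The signal was 2.32-fold lower after crush (log2 fold change -1.21, SE 0.14, adjusted p = 0.00365, limma), a call that held with each pool left out. On its dimmer probe (A_15_P602597) the values were 5.78, 5.50, 5.49 and 5.66 in crush pools and 6.35, 6.21, 6.39 and 6.68 in control pools (-0.80, SE 0.13, adjusted p = 0.0168, limma). That second call was lost without crush pool 2 (adjusted p = 0.0655), crush pool 3 (adjusted p = 0.0640) or control pool 3 (adjusted p = 0.0576, limma), and with a normexp offset of 50 (log2 fold change -0.45). It was also lost with replicate number as a block (adjusted p = 0.0597, limma).

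pou4f3 (Brn3c), best known in mammals as a hair cell factor of the inner ear and present in a subset of mouse ganglion cells, was measured by 1 dim probe (A_15_P169931). It read 5.64, 5.50, 5.51 and 5.37 in crush pools, against 6.56, 6.16, 6.47 and 6.34 in control pools. The crush pools lay close together and all below the control pools. The signal was 1.84-fold lower after crush (log2 fold change -0.88, SE 0.12, adjusted p = 0.00757, limma). With a normexp offset of 50, which pulls dim signals together, the change was -0.49 and fell short of 1.5-fold (adjusted p = 0.00815, limma).

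irx4a, an Iroquois homeodomain factor whose chick counterpart is present in developing ganglion cells, had the largest mean fall of the 9 measured genes. The 95% interval of its change (-3.62 to -1.95) held the change of isl2b (-2.57), and irx4a was not tested against isl2b. The irx4a probe (A_15_P140746) read 9.14, 7.88, 7.80 and 9.31 in crush pools and 11.16, 11.16, 11.19 and 11.76 in control pools. The crush pools formed a lower and a higher pair, pools 2 and 3 against pools 1 and 4, and all were below the control pools. The means were 8.53 ± 0.81 in crush pools and 11.32 ± 0.30 in control pools (SD, n = 4 each), a 6.89-fold lower signal (log2 fold change -2.79, SE 0.37, adjusted p = 0.00663, limma). Among 13143 genes ordered by the change of their brightest probe, irx4a had the fall of rank 10, isl2b rank 12 and pou4f2 rank 22, while pou4f4 stood at 69, tbr1b at 161 and pou4f3 at 168. The order takes no account of the spread among pools, and some lens markers that were not called stood above irx4a.

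The duplicate copy irx4b, no member of the list, was lower too. Its brightest probe (A_15_P151576) read 6.09, 5.63, 5.80 and 6.27 in crush pools, against 7.50, 7.49, 7.87 and 7.91 in control pools. Crush and control pools did not overlap, and the signal was 3.35-fold lower after crush (log2 fold change -1.74, SE 0.17, adjusted p = 0.00186, limma). The second irx4b probe (A_15_P734206) was not well above background in any crush pool, with a mean of 4.88 in crush pools and 6.12 in control pools. Its signal was 2.35-fold lower after crush (log2 fold change -1.24, 95% interval -1.65 to -0.82, adjusted p = 0.0106, limma). The fold was unchanged when each dim value was taken at the higher of itself and the lowest signal well above background on its array. It is an estimate for this processing only and no lower bound, and the change was -0.59 with a normexp offset of 50.

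Of the T-box factors, tbr1b was called and eomesa was not. tbr1b, whose mouse counterpart Tbr1 marks a subset of ganglion cells, read 6.90, 6.78, 6.72 and 6.73 in crush pools, against 7.50, 7.49, 7.71 and 8.01 in control pools (A_15_P110671). The crush pools lay within a narrow band below all control pools. The signal was 1.86-fold lower after crush (log2 fold change -0.89, SE 0.14, adjusted p = 0.0125, limma). The call was lost without crush pool 3 (-0.87, adjusted p = 0.0520, limma). Its other probe (A_15_P629141) read 4.00, 3.32, 3.49 and 4.08 in crush pools and 4.09, 4.09, 4.08 and 4.27 in control pools, but did not rise well above background on any array, so no fold change is given for it. No probe was matched to tbr1a.

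eomesa, whose mouse counterpart Tbr2 is needed for the light-sensing melanopsin ganglion cells, read 7.13, 7.16, 7.33 and 6.91 in crush pools and 7.34, 7.55, 7.32 and 7.44 in control pools (A_15_P238551). Control pool 3 fell inside the crush range and the others lay above it. The log2 fold change was -0.28 (SE 0.12, adjusted p = 0.240, limma). The second probe (A_15_P457610) read 5.87, 6.32, 6.32 and 6.41 in crush pools and 5.92, 6.18, 6.50 and 5.99 in control pools (0.08, SE 0.17, adjusted p = 0.837, limma). Its copy eomesb read 10.06, 9.94, 9.84 and 9.87 in crush pools and 10.37, 10.61, 10.54 and 10.37 in control pools. The eomesb pools did not overlap and the adjusted p was 0.0327 in limma, but the change of -0.54 (SE 0.11) was under 1.5-fold. Its second probe (A_15_P726211) had the same change (-0.54, SE 0.20, adjusted p = 0.197, limma). The other relative of an Islet gene, isl1l (isl1b), did not rise well above background anywhere.

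**Figure D2:**
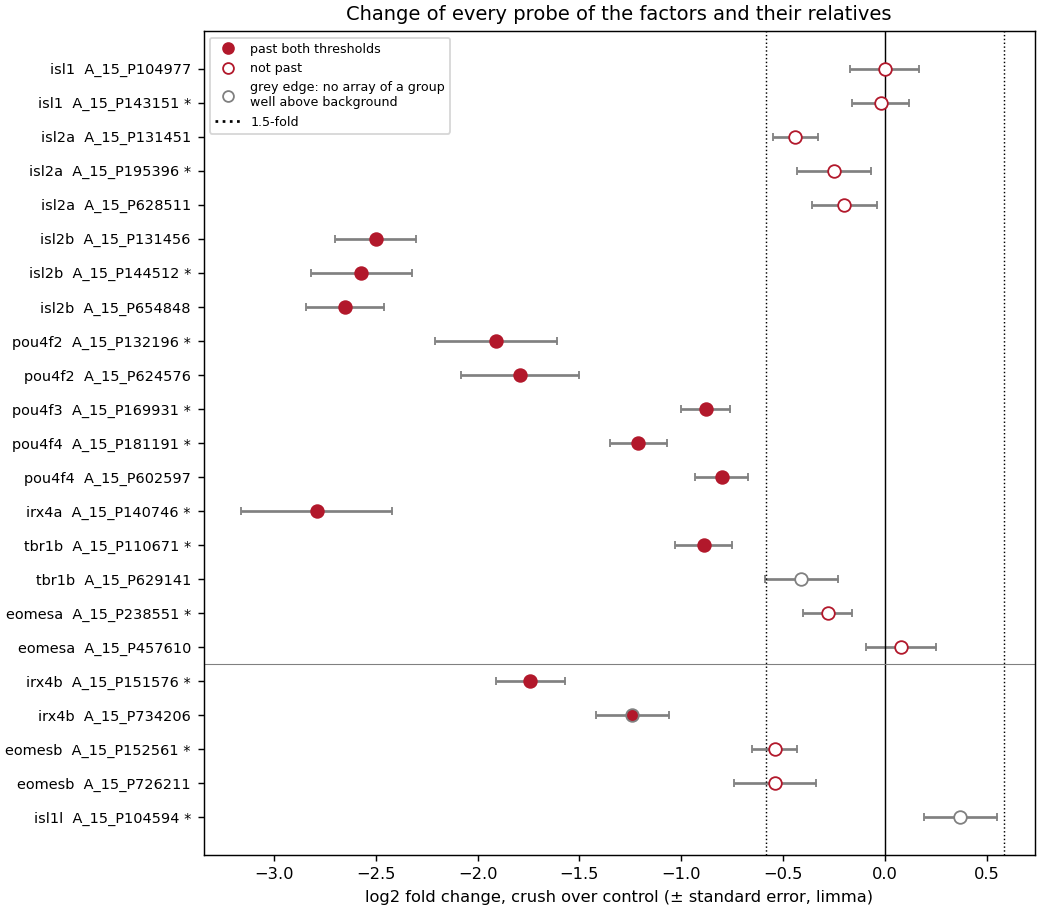
Log2 fold change, crush over control, of each of the 18 member probes (above the grey line) and of the probes of irx4b, eomesb and isl1l (below it), with the standard error from limma; filled points passed both thresholds, a grey edge marks a probe that no array of a group had well above background, stars mark the brightest probe of a gene, and the dotted lines stand at 1.5-fold. The 3 isl2b probes lie between -2.65 and -2.50, whereas the isl1 and isl2a probes lie between -0.44 and 0.00.

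Differences between relatives were examined within each pool, as the log2 signal of 1 gene minus that of the other, which cancels any factor common to the whole array. Of 11 pairs listed, 8 were compared, since 3 involve pou4f1. isl2b changed by -2.32 (SE 0.33) relative to isl2a and by -2.55 (SE 0.26) relative to isl1, with no overlap between crush and control pools. irx4a changed by -1.04 (SE 0.29) relative to irx4b, and tbr1b by -0.61 (SE 0.17) relative to eomesa, again without overlap. These 4 pairs had p = 0.0286 in an exact two-sided permutation test over 70 relabellings, the smallest value that 4 against 4 pools allow, and an adjusted p of 0.0571 over the 8 pairs.

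For the other 4 pairs crush and control pools overlapped. isl2a changed by -0.23 (SE 0.11) relative to isl1 (exact permutation p = 0.0857, adjusted p = 0.0980). pou4f2 changed by -1.02 (SE 0.36) relative to pou4f3 (exact permutation p = 0.0571, adjusted p = 0.0762) and by -0.69 (SE 0.32) relative to pou4f4 (p = 0.114). pou4f3 changed by 0.33 (SE 0.15) relative to pou4f4 (exact permutation p = 0.0571, adjusted p = 0.0762). In all, 0 of 8 pairs passed after adjustment, which needs at least 5 pairs at the smallest possible p, so that 4 such pairs could not pass. With normexp offsets of 16 or 50 and with the deposited log2 values, 6 of 8 passed (exact permutation, adjusted p = 0.0381), namely the 4 pairs without overlap and the 2 pairs of pou4f3. An offset pulls dim signals together. With an offset of 50, pou4f2 differed from pou4f3 by -1.17, pou4f3 from pou4f4 by 0.55 and irx4a from irx4b by -1.42, all larger in size. The differences of isl2b from isl2a (-2.18) and isl1 (-2.37), and of tbr1b from eomesa (-0.46), were smaller in size. The deposited values gave nearly the same differences as an offset of 16 (-2.27 in both for isl2b against isl2a).

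**Figure D3:**
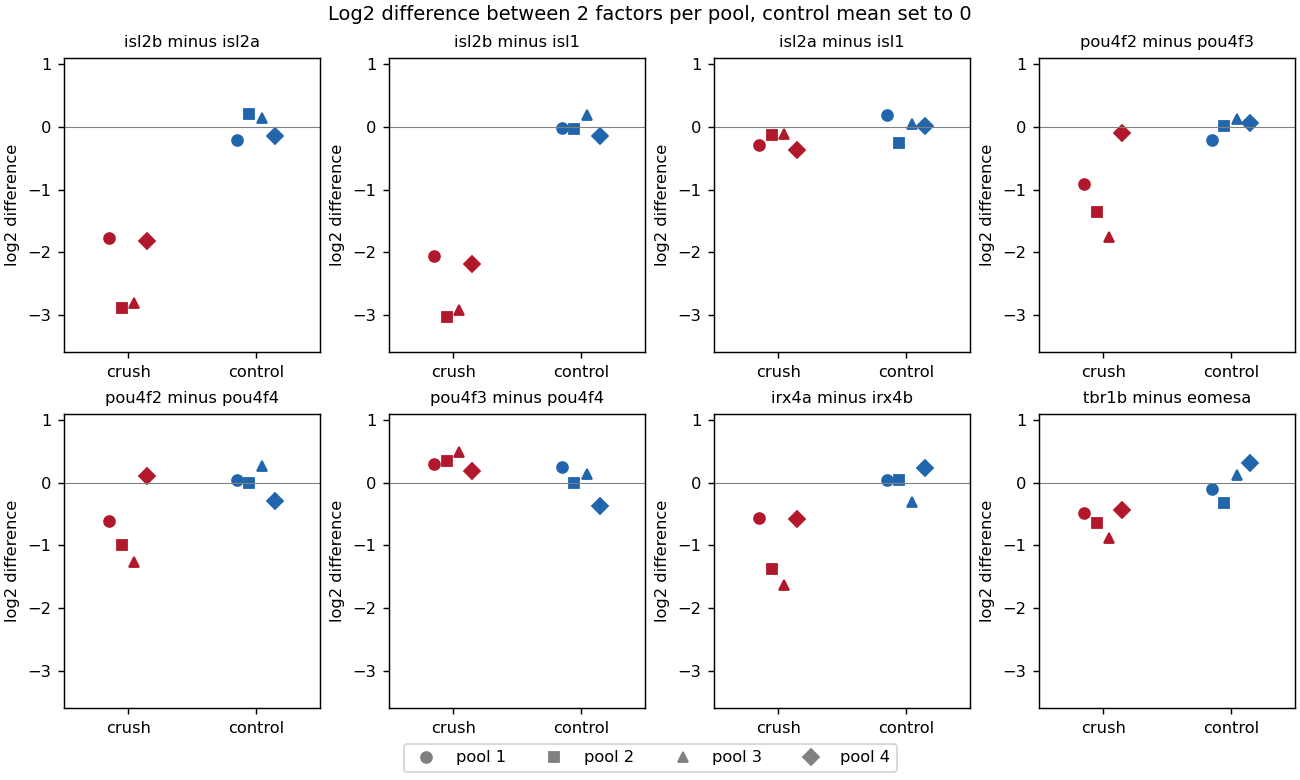
Difference in log2 signal between the 2 genes of each pair in the 4 crush pools (red, left) and the 4 control pools (blue, right), shifted so that the mean of the control pools is 0; marker shapes give the pool number. The crush pools lie apart from the control pools for isl2b against isl2a and isl1, irx4a against irx4b, and tbr1b against eomesa, and pou4f2 in crush pool 4 lies within the control range of its differences from pou4f3 and pou4f4.

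The crush pools were unequal in how far these genes had fallen. Relative to the control mean, isl2b stood at -1.98, -3.09, -2.94 and -2.28 in crush pools 1 to 4. irx4a stood at -2.17, -3.44, -3.52 and -2.01, and pou4f2 at -1.65, -2.24, -2.63 and -1.11. Crush pools 2 and 3 were the lowest for all 3 genes, and the range among crush pools was 1.12 for isl2b, 1.51 for irx4a and 1.52 for pou4f2, against 0.44, 0.60 and 0.44 among control pools. The smaller falls were more even, with a range among crush pools of 0.33 for pou4f4, 0.27 for pou4f3 and 0.18 for tbr1b, against 0.55, 0.40 and 0.52 among control pools. Pools 2 and 3 were the lowest crush pools on 8 of the 10 under-expressed member probes (80.0%), against 121 of the 377 under-expressed probes of the array (32.1%). Probes of 1 gene share their target, and the pattern was picked out after the values were seen, so these shares are a description only. The order was not particular to the factors. Relative to the control mean, rbpms2b stood at -0.85, -1.39, -1.32 and -1.07 in crush pools 1 to 4, and scn4ba at -1.70, -2.51, -2.26 and -1.84. In rbpms2a pools 2 and 3 were lowest too, whereas in calb2b pool 4 was lowest.

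**Figure D4:**
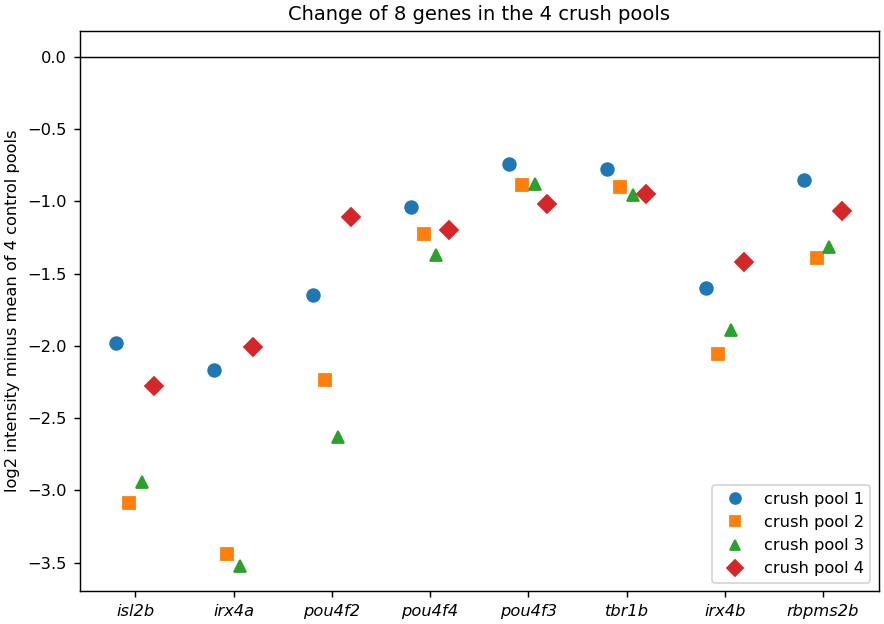
Log2 intensity of the brightest probe in each crush pool minus the mean of the 4 control pools, for the 6 under-expressed factors, irx4b and the ganglion cell marker rbpms2b; colour and shape give the crush pool and the line at 0 is the control mean. Crush pools 2 and 3 lie below pools 1 and 4 for isl2b, irx4a, pou4f2, irx4b and rbpms2b and, by a small margin, for pou4f4, while the pools lie close together for pou4f3 and tbr1b.

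The genes whose pattern over the 8 arrays was most like that of isl2b were sought among 10656 genes that are not members and were well above background on all control arrays. The closest of these non-members were avpr2l, a vasopressin receptor-like gene (Pearson's r = 0.996), rbpms2b, an RNA-binding protein that marks vertebrate ganglion cells (0.993), nudt6, a nudix hydrolase (0.9925), irx4b (0.987) and scn4ba, a sodium channel beta subunit (0.987). rbpms2b read 12.92, 12.38, 12.45 and 12.70 in crush pools and 13.61, 13.68, 13.89 and 13.90 in control pools, with crush pool 2 lowest. The arrays fall into crush and control, which dominates such an r, and after each group's mean was removed r was 0.938 for avpr2l, 0.917 for rbpms2b, 0.948 for nudt6, 0.800 for irx4b and 0.809 for scn4ba. Among the members, irx4a was closest to isl2b (0.989, and 0.938 with group means removed). For pou4f2 the values were 0.961 and 0.744, for pou4f4 0.977 and 0.662, for tbr1b 0.952 and 0.475, and for pou4f3 0.941 and 0.184. The members that were not called had lower values over the 8 arrays, as the group difference that dominates r also decides the call. These were 0.638 for eomesa, 0.476 for isl2a and 0.172 for isl1, and -0.487, 0.0901 and 0.415 with group means removed. With group means removed, isl1 (0.415) stood above the called pou4f3 (0.184). The non-members were picked by their r over the same 8 arrays, so their r with group means removed is no separate check. These correlations over 8 arrays share the same normalisation and are descriptions.

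Other members of the same families were mostly without a call. The list held 24 names of Iroquois, LIM-homeodomain, T-box and POU6F genes, of which isl1l and isl1b are 1 gene. Of 19 measured, 4 were under-expressed by their brightest probe and 0 over-expressed in limma, all 4 of them Iroquois genes, and the median change was -0.22. At an unadjusted p of 0.05, 6 were lower and 0 higher. Over all genes with a symbol, 0.883% were under-expressed and 2.47% over-expressed by the brightest probe. At that unadjusted p, 9.06% of all genes with a symbol were lower and 12.9% higher. Beside irx4b the under-expressed relatives were irx1a, irx1b and irx2a. irx1a read 9.06, 8.80, 8.85 and 8.88 in crush pools and 9.60, 10.18, 9.81 and 10.21 in control pools (-1.05, SE 0.16, adjusted p = 0.0112, limma). irx1b had a change of -0.69 (SE 0.13, adjusted p = 0.0284, limma) and irx2a one of -0.61 (SE 0.13, adjusted p = 0.0488, limma). Both were borderline calls. With a pool left out, irx1b kept its call in 1 of 8 fits (without control pool 2) and irx2a in 0 of 8. Adjusted p-values there reached 0.0935 for irx1b and 0.127 for irx2a (limma). Of 10 other settings, irx1b kept its call in 6 and irx2a in 3. irx1a kept its call with each pool left out and lost it with replicate number as a block (adjusted p = 0.065, limma).

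The wider set of transcription factors of ganglion cell development, from atoh7 and the neurod, ebf and onecut families to tbx and satb genes, had 41 of 55 genes measured. By the brightest probe 2 were under-expressed and 1 over-expressed, and the median change was -0.12. Over all genes with a symbol these shares were 0.883% and 2.47%, so that 1 of 41 over-expressed is near the array-wide share. Without control pool 4, 3 were over-expressed. At an unadjusted p of 0.05, 8 were lower and 3 higher, against 9.06% and 12.9% of all genes with a symbol. tfap2d, an AP-2 factor, read 9.12, 8.55, 8.68 and 8.78 in crush pools and 9.82, 9.95, 9.98 and 10.36 in control pools (-1.24, SE 0.16, adjusted p = 0.00648, limma). neurod6a, a bHLH factor, had a change of -0.73 (SE 0.14, adjusted p = 0.0278, limma) and lost its call without any 1 of the 4 crush pools or control pool 3, with adjusted p-values up to 0.0923. wt1b, a Wilms tumour factor, rose, with 7.06, 7.16, 7.97 and 7.42 in crush pools and 4.72, 4.19, 4.58 and 5.33 in control pools (2.70, SE 0.27, adjusted p = 0.00206, limma). It was well above background in all crush pools but in only 1 of 4 control pools, so the size of that rise is uncertain. atoh7 itself had a change of -0.33 (SE 0.14, adjusted p = 0.261, limma).

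Islet proteins act through LIM-domain binding (LDB) adaptors and compete for them with LMO proteins. The list of 14 partners held ssbp genes and rlim beside the LDB and LMO genes. Of these 14, 12 were measured, all well above background on all 8 arrays, and 0 were called by their brightest probe in limma. Over all genes with a symbol, 0.883% were called lower and 2.47% higher, so that 0 of 12 is near the array-wide share. At an unadjusted p of 0.05, 1 partner was higher and 2 were lower, against 12.9% and 9.06% of all genes with a symbol. The median change of the partners was -0.14. A dimmer probe of ldb2b (A_15_P113009), singled out after its values were seen, read 5.99, 5.51, 5.66 and 5.46 in crush pools and 6.83, 6.33, 6.43 and 6.49 in control pools (-0.87, SE 0.16, adjusted p = 0.0261, limma). The brightest ldb2b probe had a change of -0.14 (SE 0.17, adjusted p = 0.706, limma), so the probes of that gene disagree.

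Genes made in ganglion cells, their channels, cytoskeleton and surface proteins, did not all move with the factors. Of 45 listed, 37 were measured, 10 were under-expressed and 6 over-expressed by their brightest probe, with a median change of -0.14. The count of over-expressed genes was 3 without crush pool 2, crush pool 3 or control pool 1, 2 or 3. The count of under-expressed genes was 7 without crush pool 2 and 8 without crush pool 3 or control pool 3. Over all genes with a symbol, 0.883% were under-expressed and 2.47% over-expressed by the brightest probe. At an unadjusted p of 0.05, 16 products were lower and 9 higher, against 9.06% and 12.9% of all genes with a symbol. The lists of products, family relatives, development factors, partners and cell markers were chosen with earlier results of these data known. The shares set beside them are therefore a description only. A dimmer probe of cntn2 (A_15_P120490), singled out after its values were seen, was also called higher (0.94, SE 0.18, adjusted p = 0.0312, limma). The brightest cntn2 probe was not called (0.21, SE 0.13, adjusted p = 0.415, limma), so the probes of that gene disagree. Many products are also made by other retinal neurons.

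Among the products that fell, scn4ba had the largest change. It read 9.37, 8.56, 8.82 and 9.23 in crush pools and 10.87, 10.87, 11.44 and 11.10 in control pools (-2.08, SE 0.21, adjusted p = 0.00202, limma). calb2b, a calretinin, read 12.52, 12.07, 12.09 and 11.60 in crush pools and 14.18, 13.62, 14.17 and 14.06 in control pools (-1.94, SE 0.21, adjusted p = 0.00275, limma). The potassium channel-interacting protein gene kcnip3b and the ganglion cell marker rbpms2a fell as well. kcnip3b changed by -1.89 (SE 0.15, adjusted p = 0.000881, limma). rbpms2a read 13.87, 13.29, 13.52 and 13.93 in crush pools and 14.84, 15.01, 15.17 and 15.46 in control pools (-1.47, SE 0.19, adjusted p = 0.00559, limma). These 4 genes were picked among called genes without overlap between groups, and each kept its call with each pool left out.

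Of the 6 products that rose, tubb5 had the largest change. tubb5, a beta tubulin, read 16.10, 16.22, 16.21 and 16.13 in crush pools and 13.10, 13.07, 12.74 and 14.19 in control pools, 7.43-fold higher after crush (2.89, SE 0.28, adjusted p = 0.00162, limma). elavl4, a neuronal RNA-binding protein, read 12.81, 12.90, 13.30 and 12.24 in crush pools and 10.34, 10.92, 11.01 and 10.49 in control pools (2.12, SE 0.24, adjusted p = 0.00342, limma). The genes named here as rising were likewise picked among called genes without overlap between groups. nefma, a neurofilament subunit, read 11.78, 11.64, 11.77 and 11.23 in crush pools and 9.36, 9.76, 9.47 and 9.62 in control pools (2.05, SE 0.15, adjusted p = 0.000804, limma). The internexin gene inab changed by 0.98 (SE 0.20, adjusted p = 0.0395, limma), and it kept its call only without crush pool 1 or crush pool 4, with adjusted p-values up to 0.118 otherwise. Other intermediate filament genes of the list did not rise. nefmb was under-expressed (-1.30, SE 0.25, adjusted p = 0.0328, limma; well above background in 2 of 4 crush pools), and the changes of neflb (-0.06, SE 0.26) and inaa (-0.14, SE 0.26) were not called. These 3 genes were picked once their values were known.

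**Figure D5:**
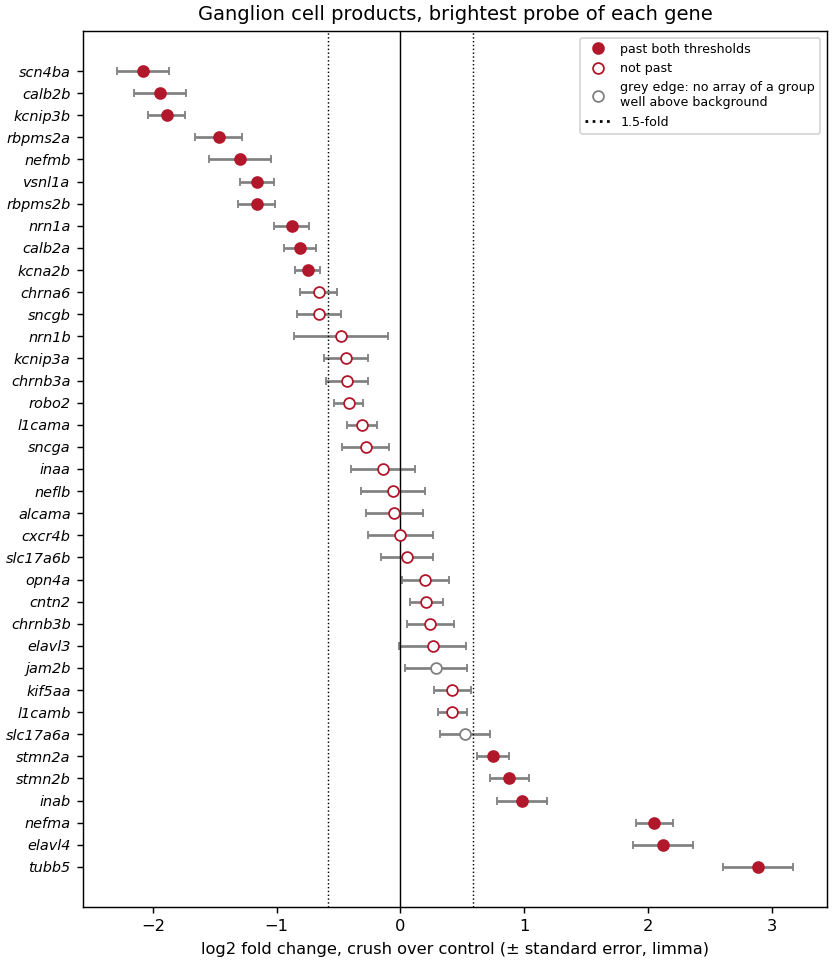
Log2 fold change, crush over control, of the brightest probe of the 37 measured ganglion cell products, with the standard error from limma; filled points passed both thresholds, grey edges mark genes that no array of a group had well above background, and the dotted lines stand at 1.5-fold. The list runs from scn4ba at -2.08 to tubb5 at 2.89, with 10 genes called lower and 6 called higher.

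Markers of other cells were listed beside these genes. Rod markers (12 of 12 measured) and cone markers (14 of 14) were well above background on all arrays. No marker of the 12 other cell types or tissues was called by its brightest probe in limma. Over all genes with a symbol, 0.883% were called lower and 2.47% higher, and 9.06% and 12.9% at an unadjusted p of 0.05. At that unadjusted p, 6 of 12 lens, 5 of 20 amacrine, 3 of 12 rod, 3 of 15 bipolar, 3 of 5 red blood cell and 1 of 11 Muller glia markers were lower. Higher were 3 of 9 myeloid, 2 of 11 Muller glia, 1 of 7 pigment epithelium and 1 of 10 skin and cornea markers. The mean log2 intensity of the 20 measured amacrine markers lay between 10.66 and 11.02 in crush pools and between 11.07 and 11.27 in control pools, and 18 of the 20 were lower, with a median change of -0.28. The mean of the rod markers lay between 15.12 and 15.19 in crush pools and between 15.33 and 15.52 in control pools, with 11 of 12 lower and a median change of -0.22. Both lists had no overlap between the groups. Lack of overlap was not particular to these markers, since the list of family relatives had none either. Its mean lay between 7.65 and 7.85 in crush pools and between 7.96 and 8.26 in control pools, with 15 of 19 lower. The part of the amacrine and rod markers in the changes of the ganglion cell factors was not tested. The means of the bipolar, horizontal, cone, Muller glia, myeloid, pigment epithelium, oligodendrocyte, red blood cell, lens, and skin and cornea markers overlapped between the groups. The mean of the lens markers ranged from 6.21 to 6.70 in crush pools and from 6.58 to 11.23 in control pools, with 12 of 12 lower and a median change of -1.60. The red blood cell markers had a median change of -0.56, with 4 of 5 lower.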

How the data were processed

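Retinal RNA of 4 crush and 4 control pools was measured on 1-colour Agilent arrays, with group and replicate number as in the sample labels. The deposited scanner files hold, per the file headers, the median fluorescence intensity and the median local background intensity of each spot. They also hold a processed signal and marks for outlier, saturated and well-above-background spots. The authors also deposited log2 values made with normal-exponential correction and quantile normalisation, used here as an alternative. The authors' methods name limma, and the offset is not given in the sources used here.

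Here normexp correction of the intensity (offset 0) was followed by removal of control spots, masking of outlier spots, quantile normalisation, log2 transformation and averaging over the spots of a probe. The correction had been planned on the spot signal, and the median is what the files hold. The 43601 probes with at least 2 values per group entered limma 3.58.1 (R 4.3.3; lmFit, then eBayes; no covariate), with Benjamini-Hochberg adjustment over all of them. The test was checked on simulated data. Python 3.11.15 with numpy 2.4.6, pandas 2.3.3, matplotlib 3.10.9 and scipy 1.17.1 served for tables, permutation tests and plots.

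RefSeq accessions were carried by 27369 probes, and 25598 (58.7% of all probes) were matched to 13143 symbols through the RefSeq gene table of assembly GRCz12tu, without versions, and no coordinates were used. The text names every member and probe, the nearest relatives, from each list up to 4 called genes with the largest rise and 4 with the largest fall among those without overlap between groups, and the 5 non-member genes most like isl2b, with other genes said to be singled out or given as background to a list (atoh7). The members and lists were chosen with earlier results of these data known. Alternatives were 2 offsets, 2 other scalings, the deposited values, a filter on dim probes, outlier spots kept, a replicate block, array weights, trend and robust eBayes, and each pool left out.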

Additional observations from a re-analysis of the deposited data

Results flagged for a closer look

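In 4 of 36 groups of 4 pools, 1 pool stood far from the other 3 by Dixon's test, which chance does for about 5% of groups. Control pool 4 was the pool in 3 of them. On isl2b probe A_15_P654848 it read 10.88, against 10.58 to 10.63 in the other control pools. For irx4a it read 11.76, against 11.16 to 11.19. On the tbr1b probe A_15_P629141, which was not well above background, it read 4.27, against 4.08 to 4.09. On the eomesa probe A_15_P457610, crush pool 1 read 5.87, against 6.32 to 6.41 in the other crush pools. Without control pool 4 the change was -2.64 for irx4a (adjusted p = 0.0190, limma) and -2.59 on that isl2b probe (adjusted p = 0.00235, limma).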

How the results depend on the processing

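Member genes under-expressed numbered 6 in 8 of 10 other settings of processing or model and when a gene's probes were averaged. They were 5 with a normexp offset of 50 (without pou4f3), 5 with the replicate block (without tbr1b, adjusted p = 0.0668, limma), and 5 or 6 with a pool left out. At an absolute log2 fold change of 1.5 they were 3, namely isl2b, irx4a and pou4f2. No member or named gene that was called reversed its direction. The dim tbr1b probe passed with median scaling and with the processed signal. The all-probe count of 1203 was 2380 with median scaling, 488 with the replicate block, and 482 to 1533 with a pool left out. The processed signal moved the median change of all probes to -0.12. Family relatives under-expressed by their brightest probe numbered 4. They were 3 with median scaling, the processed signal or array weights, and 2 with offsets of 16 or 50 or the deposited values. They were 1 with the replicate block and 2 to 3 with a pool left out. Development factors under-expressed by their brightest probe numbered 2, but 1 with the replicate block and 1 to 2 with a pool left out. They were 3 in 8 of the 10 other settings, median scaling and the block excepted. Those over-expressed numbered 1, but 2 with offsets of 16 or 50, the processed signal, the deposited values, or trend and robust eBayes. They were 3 with median scaling, the filter on dim probes or array weights, and 1 to 3 with a pool left out. Ganglion cell products over-expressed by their brightest probe numbered 6, but 3 with the replicate block and 3 to 6 with a pool left out. Those under-expressed numbered 10, but 7 with the replicate block, 9 to 11 in the other settings, and 7 to 10 with a pool left out. Pairs that differed numbered 0, but 6 with offsets of 16 or 50 and with the deposited values, where enough pairs were at the smallest possible p for the adjustment to pass. An offset pulls dim signals together, and the deposited values gave nearly the same differences as an offset of 16. The cause of the other moves was not tested. By the sample labels, pools of the same number share only that number, and whether they share more is not stated. The deviations of such pools correlated at -0.02, -0.21, -0.01 and 0.18 for numbers 1 to 4, and only number 4 had its own number as best partner. Signal near background limits pou4f3, the dimmer pou4f4 probe and the second tbr1b probe.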
